A study of Mus musculus with 6 samples.

Results

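The genes described here are the 30 enzymes, regulators and carriers of cholesterol and fatty acid synthesis, taken by symbol from a table of normalised counts for 27179 features. All 30 exceeded the minimum mean of 10 normalised counts, with which 13946 genes were tested, and the lowest of them, Tm7sf2, averaged 120.1. They fall into 26 sterol genes and 4 genes of fatty acid synthesis. The RNA came from kidney glomeruli, the capillary tufts that filter blood, isolated after magnetic bead perfusion. The mice were males of a mixed C57BL/6 strain, 9 weeks old, with mild proteinuria. Mice of the 3 KO libraries carried Parva-fl/fl with hNPHS2Cre, a Cre driven by a human podocin gene promoter and therefore active in podocytes, and those of the 3 WT libraries carried Parva-fl/fl without the Cre. Both groups thus hold floxed Parva, the gene of a focal adhesion protein that links integrins to actin, and whole glomeruli also hold endothelial and mesangial cells, which the Cre does not target. The question put to these genes is how their RNA levels in glomeruli differ once podocytes lack Parva.

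Cholesterol is built from acetyl-CoA through mevalonate, isoprenyl diphosphates, squalene and lanosterol. Transcription of these enzymes is controlled by sterol regulatory element-binding proteins (SREBPs), which the escort protein Scap carries from the endoplasmic reticulum to the Golgi for cleavage when membrane sterol is low, and which Insig proteins hold back when sterol is high. The Srebf2 product acts mainly on sterol genes and the Srebf1 products mainly on fatty acid genes, and both bind promoters together with NF-Y at CCAAT boxes. In the kidney, tubule cells as well as glomerular cells carry this pathway.

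RefSeq promoter windows (GRCm38.p6, from 250 bases before to 50 bases after a start) were found for 26 of the 30 genes. Both strands were searched for TCACNCCAC (the core of a sterol response element), CCAAT and GGGCGG (a GC box). None of these patterns contains another, although matches can overlap in part. An exact match to this sterol element core was present in 1 of the 26 genes, Hmgcs1, against 1.36% of the 10838 tested genes with a window. A CCAAT box was present in 22 of the 26 (84.6%), against 42.5% of the tested genes with a window. GC boxes were present in 21 of the 26 (80.8%), against 67.5%. The 250 bases before the start are shown for 4 genes as examples. Because measured values entered the choice, these 4 cannot show how promoter letters relate to change. They are Fasn and Acat2, the called genes with the smallest unadjusted p (their adjusted p is shared with Mvd and Nsdhl), Hmgcs1, the gene with the sterol element, and Mvd, the gene with the largest change. The last 2 were chosen after their values were seen. Capitals mark TCACNCCAC and CCAAT matches on either strand, a CCAAT on the other strand reading ATTGG.
Fasn: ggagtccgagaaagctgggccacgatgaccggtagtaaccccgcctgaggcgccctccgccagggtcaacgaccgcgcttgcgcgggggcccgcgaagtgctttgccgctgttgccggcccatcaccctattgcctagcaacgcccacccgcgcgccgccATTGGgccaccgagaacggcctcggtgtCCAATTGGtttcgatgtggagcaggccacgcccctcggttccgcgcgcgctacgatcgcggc
Acat2: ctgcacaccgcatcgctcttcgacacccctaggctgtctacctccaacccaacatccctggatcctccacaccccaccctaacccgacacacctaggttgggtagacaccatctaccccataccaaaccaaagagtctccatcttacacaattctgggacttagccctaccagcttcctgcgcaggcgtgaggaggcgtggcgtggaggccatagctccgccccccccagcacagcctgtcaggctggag
Hmgcs1: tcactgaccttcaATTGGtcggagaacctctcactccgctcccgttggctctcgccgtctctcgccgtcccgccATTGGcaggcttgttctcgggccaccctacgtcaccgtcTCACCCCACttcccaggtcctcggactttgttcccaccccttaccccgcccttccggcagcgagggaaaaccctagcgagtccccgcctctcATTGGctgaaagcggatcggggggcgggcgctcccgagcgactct
Mvd: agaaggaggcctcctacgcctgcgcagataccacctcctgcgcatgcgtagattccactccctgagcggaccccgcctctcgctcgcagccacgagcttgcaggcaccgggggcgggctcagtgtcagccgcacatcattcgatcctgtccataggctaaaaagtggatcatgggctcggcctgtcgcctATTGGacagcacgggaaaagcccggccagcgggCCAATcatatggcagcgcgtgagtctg
In the order shown they lie at chr11:120824548-120824797 (minus strand), chr17:12960726-12960975 (minus), chr13:119690101-119690350 (plus) and chr8:122443423-122443672 (minus). Counted from the transcription start, Fasn shows CCAAT matches at -90, -62 and -59, the closer pair overlapping, and Mvd shows matches at -60 and -27. The Hmgcs1 sterol element begins at -137, with CCAAT matches at -237, -176 and -45. The Fasn window lies inside the RefSeq span of the gene, which has a start further upstream. No TCACNCCAC or CCAAT stood in the Acat2 window, and the 7 genes called below held TCACNCCAC in no window and CCAAT in 5. A match is a run of letters and does not show that a factor bound there. Nor does the lack of an exact match in a window show that a gene has no such site.

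Before the lipid genes are described, the libraries themselves need a short account. Parva fell from 7332 ± 672 to 2189.5 ± 215 normalised counts (SD, n = 3), and its log2 fold change was -1.74 (limma adjusted p = 0.0106), so the deleted gene followed the labels. Whole reads recovered from the table numbered 11886828 to 20552984 per library. A set of 10 genes, each counted at least 30 times more often in a single library than in the next, took 17.4% to 32.4% of the reads of WT-1, WT-2, WT-3 and KO-1, and holds none of the lipid genes. Defining glomerular markers were abundant in all libraries (summed level of 18 podocyte markers from 164300 to 307491 normalised counts), but tubule RNA was present too. All 24 proximal tubule markers had a higher KO mean and 21 rose, with summed levels of 295659, 135450 and 133828 in WT-1 to WT-3, against 339040, 464833 and 513707 in KO-1 to KO-3. By this sum WT-1 was closer to KO-1 than to WT-2 or WT-3. All 16 markers of the distal tubule and collecting duct had a higher KO mean log2 level as well, and 3 rose, a count that was 15 without WT-1, 9 in DESeq2, and 0 in edgeR or when any other single library was left out. All 18 podocyte, 16 endothelial and 14 mesangial markers had negative log2 fold changes, and 9, 13 and 10 of them fell. Over all genes tested, 13.5% were called higher and 8.58% lower. The counts of called podocyte, endothelial, mesangial and proximal tubule markers were 0 in limma without WT-2, WT-3, KO-2 or KO-3. In such bulk samples, fewer cells of a type and less RNA per cell cannot be told apart. Of the markers of fat and adrenal cortex, tissues beside the kidney that are rich in these pathways, 10 of 12 adipocyte markers, Adipoq, Plin1 and Lep among them, and 8 of 10 adrenal markers, Cyp11a1 and Cyp11b1 among them, averaged below 10 and never exceeded 10.2 and 5.32 normalised counts in any library. The other 2 of each list were tested. Of the adrenal pair, Fdx1 rose by 0.84 on the log2 scale (limma adjusted p = 0.0303) and Star had a log2 fold change of 0.15, and the summed adrenal list ran from 460.1 to 715 in WT and from 861 to 1051 in KO. Of the adipocyte pair, 1 fell. The 13 immune markers tested all had positive log2 fold changes (median 0.48) and overlapped between groups, with KO-3 standing apart at a summed level of 5442, where the remaining 5 ranged from 1384 to 2174. None was called by limma, edgeR or DESeq2, and none had an unadjusted p below 0.05 in limma. The part of these cells in the results below was not tested.

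Of the 30 lipid genes, 7 rose in KO, none fell and 23 did not pass the test (limma on log2(normalised count + 1), Benjamini-Hochberg adjusted p below 0.05 over all genes tested). Such p-values measure the spread between these libraries. The 7 were Acat2 and Mvd of the mevalonate pathway, Lss, which forms lanosterol, Nsdhl and Hsd17b7 of the later sterol steps, and Fasn and Elovl6 of fatty acid synthesis. Over all genes tested, 13.5% were called higher and 8.58% lower, 22.1% in all, so that the 23.3% of lipid genes called is close to the share of all genes called in either direction. The calls lay on the higher side alone. KO libraries all lay above WT libraries in 13 of the 30 genes and below them in none. Over all genes tested, 23.2% had all KO libraries above and 21.9% had all below, 45.1% in all. The median log2 fold change was 0.28 over the 30 genes and -0.006 over all genes tested, and 23 of the 30 were positive, against 49.4% of all genes. With the deposited scaling the differences stayed below 2-fold in 5 of the 7 genes called.

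**Figure D1:**
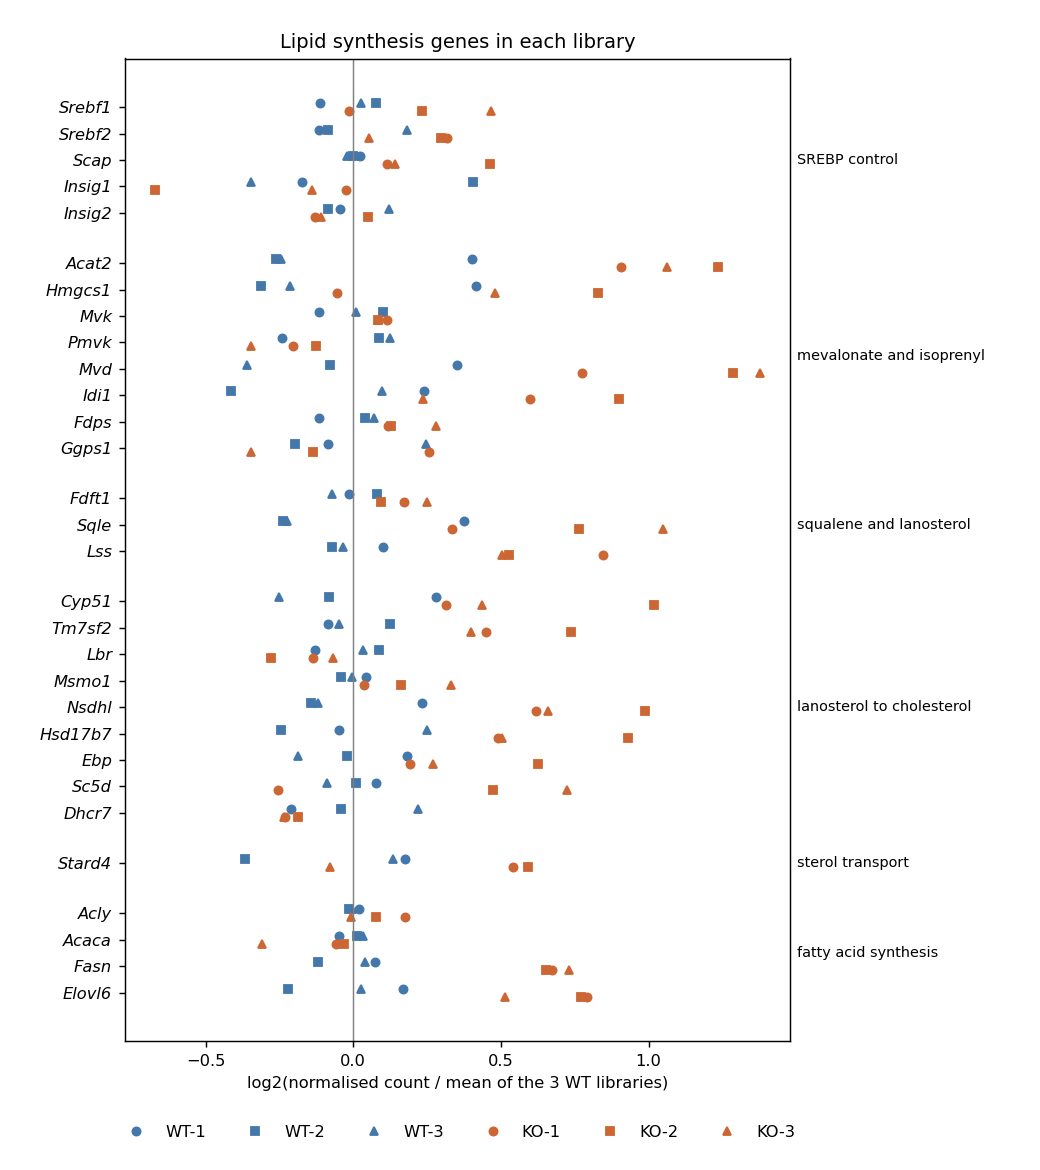
Normalised count of each of the 30 genes in each library, as log2 of its ratio to the mean of the 3 WT libraries (horizontal axis), by pathway step (rows). Blue marks are WT and orange marks KO libraries, with circle, square and triangle for libraries 1, 2 and 3. In 13 genes all orange marks lie to the right of all blue ones, and in Acat2, Hmgcs1 and Sqle the WT-1 circle lies far right of the other blue marks.

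Regulators of the pathway showed no call. Srebf1 stood at 572.5, 653 and 630.5 in WT and at 612, 728 and 855 in KO (log2 fold change 0.23, 95% interval -0.08 to 0.55), with the groups overlapping. Srebf2 stood at 779, 797 and 958 in WT and at 1052, 1037 and 877 in KO (log2 fold change 0.23, limma adjusted p = 0.191), and KO-3 lay below WT-3. A count per gene does not separate the Srebf1 isoforms. Scap, the escort protein, was at 847, 834 and 823 in WT and at 904, 1152 and 921 in KO, a log2 fold change of 0.24 (limma adjusted p = 0.151) without overlap. Insig1, itself a target of SREBPs and a sensor of sterol supply, was uneven in both groups, at 435, 649 and 385 in WT and at 482, 307 and 445 in KO. Its log2 fold change of -0.24 has a 95% interval from -0.80 to 0.32. Insig2 lay between 658 and 783 in every library (log2 fold change -0.06). The 5 regulators thus ranged from -0.24 to 0.24.

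The mevalonate pathway had its largest differences at its entry and at the decarboxylation step. Acat2, the cytosolic acetoacetyl-CoA thiolase that makes the first intermediate (not the cholesterol acyltransferase of the same alias), lies at mm10 chromosome 17, 12943042 to 12960725. Its values were 531, 336 and 339 in WT and 753, 946 and 840 in KO. All KO libraries were above all WT libraries, WT-1 being the highest of the WT group. Its mean rose from 402 ± 112 to 847 ± 96.8 (SD, n = 3). The log2 fold change was 1.10 with an SE of 0.19 (limma adjusted p = 0.0286). Mvd, mevalonate diphosphate decarboxylase (chromosome 8, 122433596 to 122443422), was at 236, 175 and 144 in WT and at 316, 452 and 481 in KO. Here too WT-1 was the highest WT library and KO-1 the lowest KO library. Mvd rose from 185 ± 46.6 to 416 ± 87.8 (SD, n = 3). On the log2 scale this was 1.17 with an SE of 0.23 (limma adjusted p = 0.0286), the largest among the 30 genes.

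The steps between and after these showed smaller values. Hmgcs1, the cytosolic HMG-CoA synthase and the sterol gene with the highest level per length, was at 2163, 1306 and 1398 in WT and at 1563, 2881 and 2262 in KO. KO-1 lay below WT-1, the groups overlapped, and the log2 difference of 0.46 did not pass (SE 0.26, limma adjusted p = 0.235). The kinases Mvk and Pmvk, which act on mevalonate in turn, had log2 fold changes of 0.10 (95% interval -0.17 to 0.36) and -0.22 (-0.54 to 0.10). Idi1, the isomerase of isopentenyl diphosphate, was at 176, 112 and 160 in WT and at 226, 278 and 176 in KO (log2 fold change 0.60, limma adjusted p = 0.0984), where KO-3 fell within the WT range. Fdps, which makes farnesyl diphosphate, had a log2 fold change of 0.18 without overlap. Ggps1, which extends it to geranylgeranyl diphosphate for protein prenylation, had one of -0.06 (95% interval -0.50 to 0.38). Of the 8 genes of this stretch, 2 rose and none fell.

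Among the 3 genes from farnesyl diphosphate to lanosterol, Lss alone was called. Lss, lanosterol synthase (chromosome 10, 76531565 to 76557139), stood at 118, 105 and 108 in WT and at 198, 159 and 156 in KO. Groups were apart and the WT libraries lay close together. It rose from 110.4 ± 7.11 to 171 ± 23.5 (SD, n = 3), or by 0.62 on the log2 scale with an SE of 0.15 (limma adjusted p = 0.0326). Sqle, squalene epoxidase, a rate-limiting enzyme after mevalonate, was at 348, 228 and 229.6 in WT and at 338, 456 and 555 in KO. KO-1 lay just below WT-1, and the log2 difference of 0.74 missed the threshold (SE 0.23, limma adjusted p = 0.0569). Fdft1, squalene synthase, showed no overlap but a small log2 fold change of 0.17 (limma adjusted p = 0.240).

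From lanosterol to cholesterol, 2 of 9 genes rose. Nsdhl, a sterol dehydrogenase of C4 demethylation (chromosome X, 72918521 to 72958528), was at 412, 318 and 323 in WT and at 539, 696 and 555 in KO. The lowest KO library exceeded the highest WT library, again WT-1. Nsdhl rose from 351 ± 52.9 to 596 ± 86.7 (SD, n = 3), or by 0.77 on the log2 scale with an SE of 0.15 (limma adjusted p = 0.0286). Hsd17b7, the keto-reductase of the same demethylation complex (chromosome 1, 169949535 to 169969242), was at 129, 113 and 159 in WT and at 188, 254 and 189 in KO. In this gene WT-3, not WT-1, was highest among the WT libraries. It rose by 0.65 on the log2 scale (SE 0.19, limma adjusted p = 0.0466), and missed the threshold in edgeR (adjusted p = 0.0502). Msmo1, the oxidase of that complex, had a log2 fold change of 0.18 (95% interval -0.07 to 0.42), so that the estimates for the 3 enzymes ran from 0.18 to 0.77. Whether they differ was not tested.

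Further genes of this stretch were mixed. Tm7sf2 and Lbr both encode sterol C14 reductases, Lbr in the inner nuclear membrane as the lamin B receptor. Tm7sf2 was at 92.3, 107 and 94.7 in WT and at 134, 163 and 129 in KO, without overlap (log2 fold change 0.53, limma adjusted p = 0.0505), while Lbr was at 493, 573 and 551 in WT and at 491, 445 and 514 in KO (log2 fold change -0.16). The difference between these 2 reductases was not tested. Cyp51, the lanosterol demethylase, was at 753, 586 and 521 in WT and at 769.9, 1256 and 839 in KO (log2 fold change 0.61, limma adjusted p = 0.0772), with KO-1 hardly above WT-1. Ebp, an isomerase of the sterol ring, had no overlap and a log2 fold change of 0.37 (limma adjusted p = 0.107). The last enzymes, Sc5d and Dhcr7, had log2 fold changes of 0.32 (95% interval -0.24 to 0.87) and -0.21 (-0.50 to 0.09). Stard4, a cytosolic sterol carrier that is also an SREBP target, was at 149.9, 103 and 146 in WT and at 193, 200.3 and 126 in KO (log2 fold change 0.37, limma adjusted p = 0.276).

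**Figure D2:**
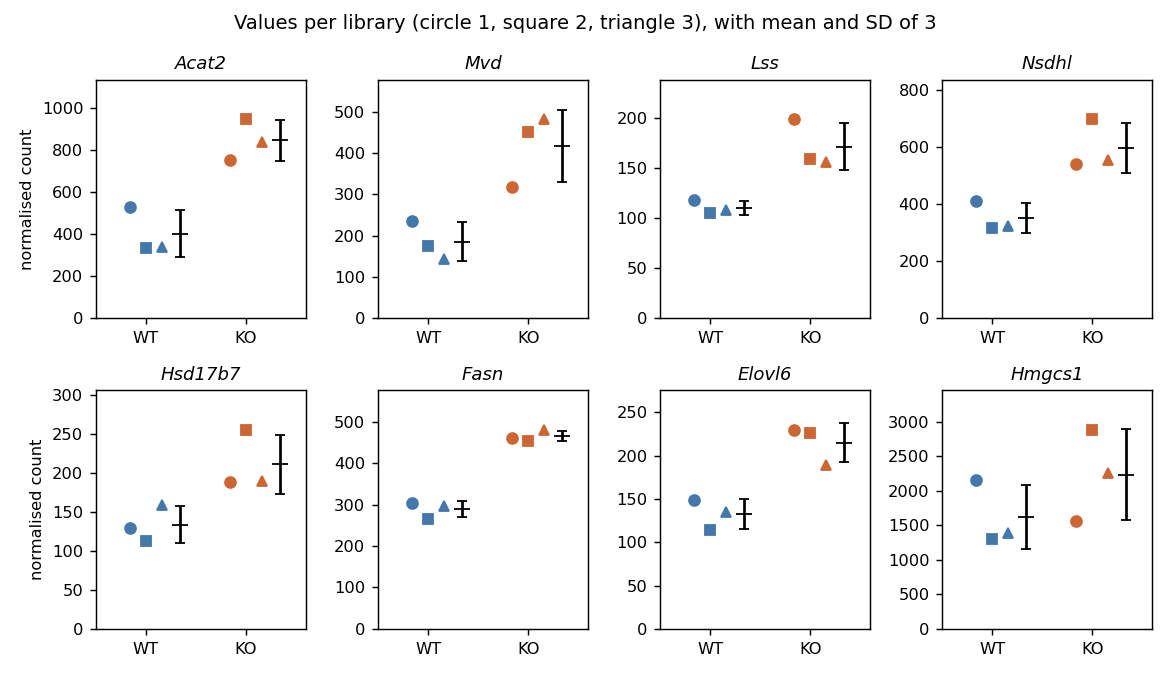
Normalised counts per library (vertical axes, from 0) of the 7 genes called higher in KO and of Hmgcs1, with the mean and SD of 3 libraries in black. Fasn lay at 266 to 304 in WT and 455 to 479.7 in KO, far apart, whereas in Hmgcs1 the groups overlap.

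In fatty acid synthesis, Acly and Acaca, which lead into malonyl-CoA, had smaller log2 fold changes than Fasn and Elovl6, which build the chain. Acly, which cleaves citrate to acetyl-CoA for both pathways, was at 1991, 1947 and 1962 in WT and at 2219, 2072 and 1956 in KO (log2 fold change 0.08, 95% interval -0.12 to 0.28). Acaca, acetyl-CoA carboxylase, was at 242, 252 and 256 in WT and at 240.1, 245 and 202 in KO (log2 fold change -0.13, 95% interval -0.41 to 0.15). Neither upper limit reaches the estimates for Fasn and Elovl6, but a difference between the steps was not tested. Among the further genes of fatty acid metabolism, Slc25a1 and Acacb had larger values than Acly and Acaca. Slc25a1, the citrate carrier that feeds Acly, rose by 0.70 on the log2 scale. Acacb had a log2 fold change of 0.58 without overlap and was not called (limma adjusted p = 0.0659). The contrast is therefore limited to the genes named in it. Fasn, fatty acid synthase (chromosome 11, 120805958 to 120825166), was at 304, 266 and 297 in WT and at 462, 455 and 479.7 in KO. Both groups were narrow and far apart. It rose from 289 ± 20.2 to 465 ± 12.9 (SD, n = 3). Its log2 fold change was 0.69 with an SE of 0.10 (limma adjusted p = 0.0286). Elovl6, which extends the palmitate that Fasn makes (chromosome 3, 129532386 to 129638495), was at 149, 114 and 135 in WT and at 229, 226 and 189 in KO, and rose by 0.70 on the log2 scale (SE 0.15, limma adjusted p = 0.0299).

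Sterol and fatty acid genes, set side by side, had similar averages. The median log2 fold change was 0.28 over the 26 sterol genes and 0.38 over the 4 fatty acid genes, and their means were 0.33 and 0.33. Mean log2 levels of the sterol genes were 8.50, 8.38 and 8.42 in WT and 8.68, 8.87 and 8.75 in KO. Those of the fatty acid genes were 8.59, 8.45 and 8.56 in WT and 8.93, 8.90 and 8.77 in KO. Neither of these mean levels overlapped between WT and KO, and the highest KO library was KO-2 for sterol genes and KO-1 for fatty acid genes. Taken gene by gene, all KO libraries lay above all WT libraries in 11 of the 26 and 2 of the 4. Over all genes tested this share was 23.2%. Per kilobase of annotated exon, the WT level was highest for Acly (373 normalised counts per kb), Hmgcs1 (353) and Ebp (267), and lowest for Lss (10.2). In KO the order at the top was Hmgcs1 (487), Acly (395), Ebp (346) and Acat2 (333), the last up from 158.

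**Figure D3:**
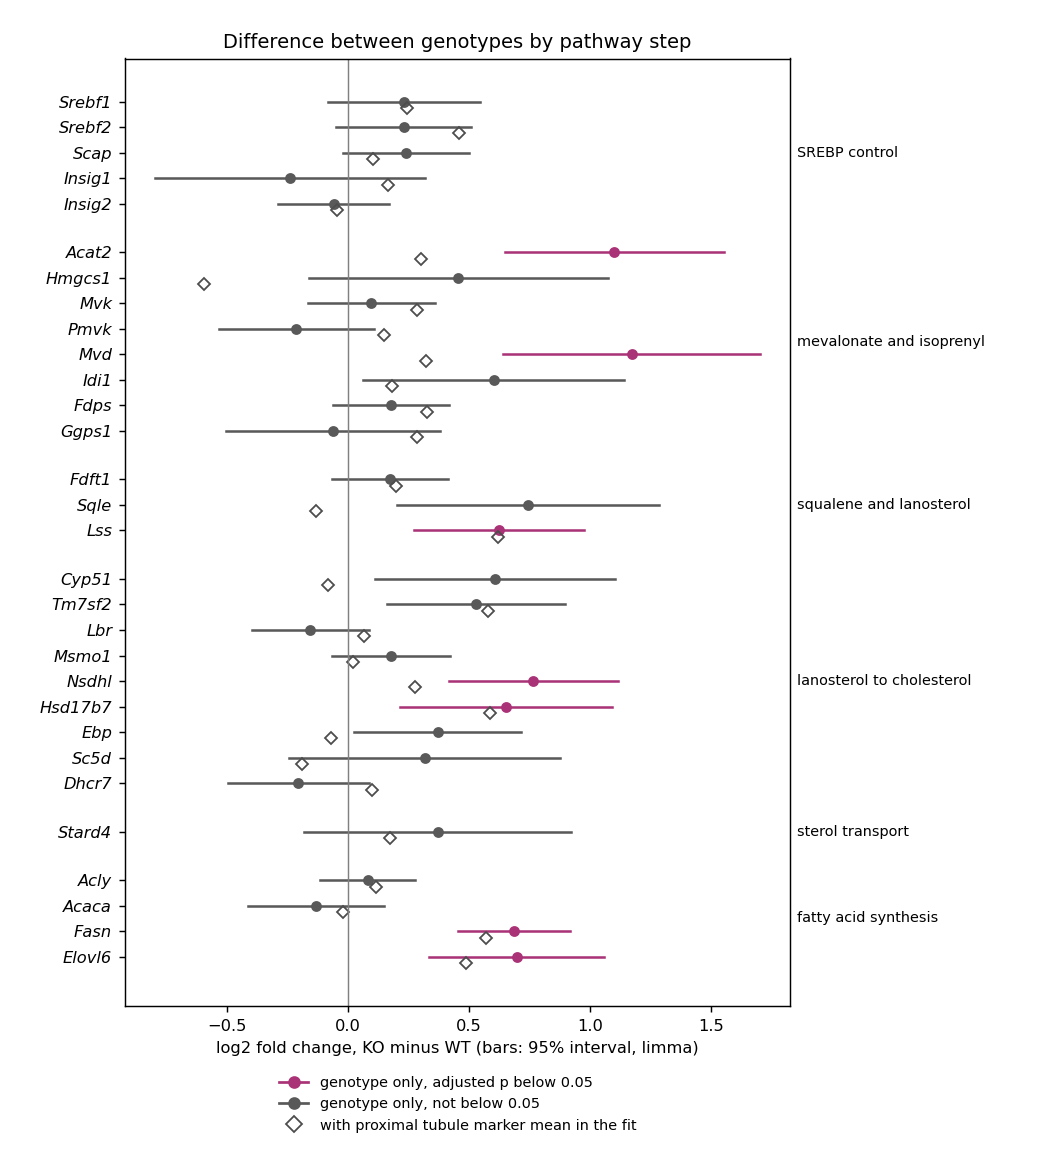
Log2 fold change, KO minus WT, of each gene (horizontal axis) with its 95% interval from limma, by pathway step (rows). Filled marks are the fit with genotype alone, coloured where the adjusted p was below 0.05, and open diamonds are estimates from a fit that also holds the mean of the proximal tubule markers. Fasn, Lss, Tm7sf2 and Hsd17b7 keep diamonds near their filled marks, while Acat2, Mvd and Hmgcs1 do not.

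The estimates for the lipid genes shifted by different amounts when the tubule markers entered the fit. WT-1, the WT library with the most tubule RNA, was the highest WT library in 16 of the 30 genes, against 37.1% of all genes tested and all 24 proximal tubule markers. When the mean log2 level of the proximal tubule markers entered the fit beside genotype, the log2 fold change of Acat2 went from 1.10 to 0.30, that of Mvd from 1.17 to 0.32, that of Nsdhl from 0.77 to 0.28 and that of Hmgcs1 from 0.46 to -0.60. Estimates for Lss (0.62 and 0.62), Hsd17b7 (0.65 and 0.58), Tm7sf2 (0.53 and 0.58), Fasn (0.69 and 0.57) and Elovl6 (0.70 and 0.49) moved less. Whether the genes differ in this was not tested. The marker mean is itself higher in every KO library, which leaves little independent information on genotype, and none of the 30 genes passed with it. In this fit Fasn alone had an unadjusted p below 0.05 in limma, as did 3.1% of all genes tested. The median over the 30 genes was 0.18, over all genes -0.006. The part of tubule RNA in the result was otherwise not tested.

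The count of 7 rested on several libraries. It was 0 in limma when WT-2, WT-3, KO-2 or KO-3 was left out, where 9, 11, 9 and 13 of the 30 genes had an unadjusted p below 0.05 and at most 4 of all genes tested passed. It was 8 without WT-1, where Hsd17b7 was lost and Cyp51 and Sqle were gained. It was 6 without KO-1, where Elovl6, Hsd17b7 and Lss were lost and Sc5d and Sqle were gained, so that 4 of the 7 calls were shared. In all these fits the 7 log2 fold changes stayed positive throughout, from 0.51 to 1.36. edgeR on the recovered reads called 6 of the 30 higher and DESeq2 10, where they called 12.1% and 16.8% of all genes higher and 20.4% and 27.3% in either direction, and DESeq2 added Cyp51, Sqle and Tm7sf2. For a single gene, 3 libraries against 3 cannot give an exact two-sided permutation p below 0.1.

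Neighbouring genes of lipid metabolism were read against the same background, 13.5% of all genes called higher and 8.58% lower. Of 16 further genes of sterol synthesis and SREBP control, 6 rose and none fell, at a median log2 fold change of 0.38, which was 0.07 with the tubule marker mean in the fit. Erlin1, an endoplasmic reticulum protein that takes part in restraining SREBP, rose from 428 ± 60.2 to 923 ± 121 (SD, n = 3; log2 fold change 1.11, and 0.65 with the tubule marker mean). Acss2, which makes acetyl-CoA from acetate, was at 1004, 456 and 581 in WT and at 1415, 2099 and 1345 in KO. It rose by 1.30 on the log2 scale (limma adjusted p = 0.0304), and the estimate was 0.16 with the tubule marker mean. WT-1 was the highest WT library in 13 of these 16 genes.

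The further genes of fatty acid metabolism moved both ways. Of 24 tested (of 25 listed), 10 rose and 3 fell, at a median of 0.54 (0.06 with the tubule marker mean), and WT-1 was the highest WT library in 18. Scd2, a stearoyl-CoA desaturase, was at 4597, 5282 and 5617 in WT and at 3153, 2538 and 2380 in KO. It fell without overlap, with a log2 difference of -0.95 (SE 0.14, limma adjusted p = 0.0286), and of -0.53 with the tubule marker mean in the fit. Thrsp, a lipogenic regulator that acts with Fasn, fell from 85.2 ± 4.22 to 42.6 ± 3.78 (SD, n = 3; log2 fold change -0.99, limma adjusted p = 0.0286). So within the same libraries Fasn and Elovl6 were higher while Scd2 and Thrsp were lower. Elovl7, another elongase, rose from 362 ± 155 to 868 ± 38.7, and Slc25a1, the mitochondrial citrate carrier that feeds Acly, from 725 ± 116 to 1170.05 ± 123 (SD, n = 3; log2 fold changes 1.34 and 0.70, limma adjusted p = 0.0286 for each). With the tubule marker mean in the fit these were 0.26 and 0.20.

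**Figure D4:**
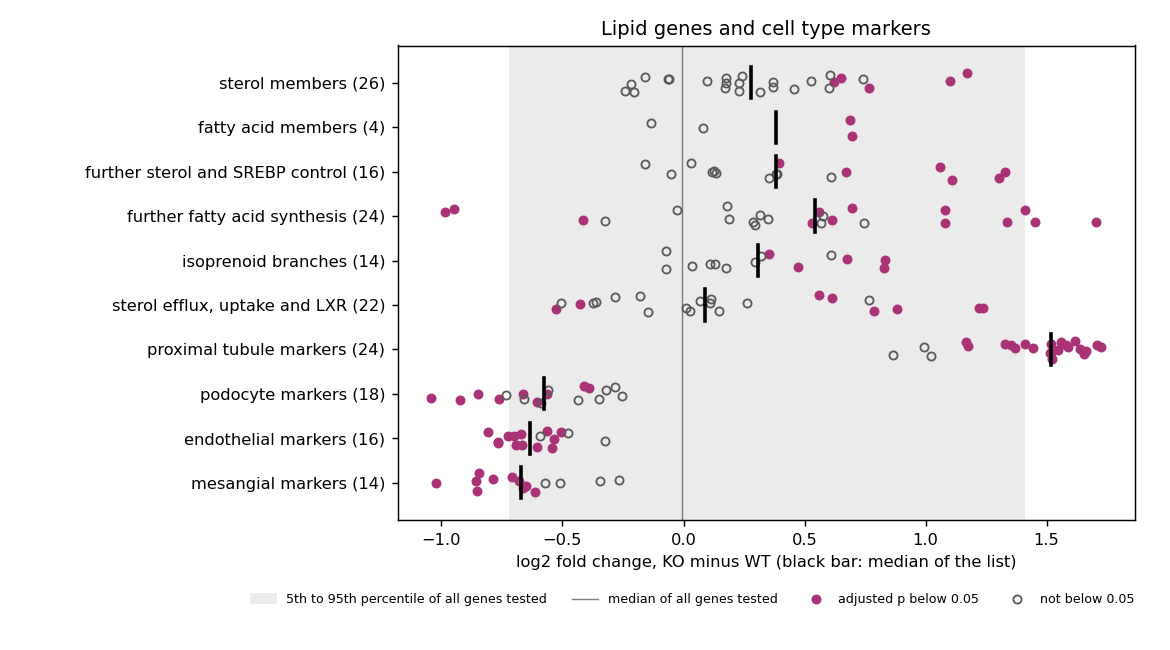
Log2 fold change, KO minus WT (horizontal axis), of the sterol and fatty acid genes, of 4 further lists of lipid genes and of 4 lists of cell type markers, 1 mark per gene, filled where the adjusted p was below 0.05, and the number tested in brackets. Black bars are list medians, and the grey band spans the 5th to 95th percentile of all genes tested. Sterol genes centre at 0.28, proximal tubule markers at 1.52 and mesangial markers at -0.67.

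Isoprenoid branches and sterol export completed the picture of the pathway. Of 14 genes that use isoprenyl diphosphates, 5 rose and none fell. Their median log2 fold change was 0.31, and 0.004 with the tubule marker mean, where 7 of the 14 were positive. They include Nus1 and Dhdds, the subunits of the dolichol-forming prenyltransferase, at 0.83 and 0.35 on the log2 scale (limma adjusted p = 0.0304 and 0.0470), and Pdss1 and Pdss2, which make the ubiquinone side chain, at 0.83 and 0.68 (limma adjusted p = 0.0369 and 0.0470). This count of 5 was 2 with a minimum mean of 1, without a filter or without KO-1, and 3 with upper quartile scaling. Of the 5 protein prenyltransferase subunits, named after their values were seen, Rabggta rose by 0.47 on the log2 scale (limma adjusted p = 0.0472), Rabggtb had a log2 fold change of 0.18, and Fnta, Fntb and Pggt1b lay between -0.07 and 0.13. Of 22 tested genes of sterol uptake, storage, efflux and the liver X receptors (of 24 listed), 6 rose and 2 fell, at a median of 0.09 (0.05 with the tubule marker mean). Stard5, a sterol carrier, rose from 327 ± 94.3 to 755 ± 91.9, Lipa, the lysosomal lipase that frees cholesterol from esters, from 1807 ± 317 to 3356 ± 782, and Nceh1, another cholesterol ester hydrolase, from 876 ± 215 to 1491 ± 194 (SD, n = 3). In that order their log2 fold changes were 1.24, 0.88 and 0.79, and 0.39, 0.23 and 0.04 with the tubule marker mean in the fit. Mylip, the liver X receptor target that degrades lipoprotein receptors, fell from 1781 ± 173 to 1233 ± 76.7 (SD, n = 3; log2 fold change -0.53, limma adjusted p = 0.0286). Other genes of the liver X receptors, named after their values were seen, were mixed: the exporter Abca1, a target, had a log2 fold change of 0.15 (limma adjusted p = 0.423), the phospholipid-remodelling target Lpcat3 rose by 0.56 (limma adjusted p = 0.0366) and the receptor Nr1h3 rose by 0.61 (limma adjusted p = 0.0414). With the tubule marker mean in the fit, Mylip, Abca1, Lpcat3 and Nr1h3 had estimates of -0.25, 0.27, 0.17 and 0.11. The counts of each of these 4 lists went to 0 in limma without WT-2, WT-3, KO-2 or KO-3, as they did for the 30 genes.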

How the data were processed

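RNA of 3 KO and 3 WT libraries was compared, grouped by sample title. The deposited table holds normalised counts, a signal in which the authors scaled the reads of each gene by 1 factor for every library. The submitters' processing notes name DESeq2 2.11.40.6, featureCounts 1.6.4, HISAT2 2.1, cutadapt 1.16.5 and bcl2fastq 2.19, in no stated order, and the build mm10. The strand setting is not given in the sources used here, nor is the annotation release, so reads of overlapping genes cannot be told apart. In GENCODE M21 the called genes Lss and Elovl6 share 3.53% and 0.529% of their exonic bases with an antisense gene, while Fdps (26.7%) and Fdft1 (18.3%) share most.

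All values (100%) were whole multiples of a step per library at a tolerance of 0.01, which returned the whole reads. No molecular identifiers are described, so reads may not be independent molecules. The test was limma 3.58.1 (R 4.3.3, variance trend) on log2(normalised count + 1), mean of at least 10, genotype as the only term. This scale understates changes of low genes. Names and coordinates came from the RefSeq table of GRCm38.p6 (25275 identifiers; 25293 named with GENCODE). Exon lengths are unions over all GENCODE M21 transcripts. No label says whether the libraries of a group came from separate mice, so p-values may measure technical spread. Members and lists were chosen with earlier results of these data known. All 30 genes are named, and from each further list up to 4 called genes with the smallest adjusted p, ties broken by unadjusted p; some of these are not reported here, and other names are said to be chosen after seeing values. Alternatives were DESeq2 1.42.0 and edgeR 4.0.16 on the recovered reads, scaling by upper quartile or TMM, pseudocounts 0.5 and 5, a replicate block, no trend, a robust prior, minimum means of 1 and 50, no filter, the tubule covariate and leaving out each library. The steps were tested on simulated counts.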

Additional observations from a re-analysis of the deposited data

How the results depend on the processing

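Pseudocounts, TMM and upper quartile scaling, a robust prior, other filters, edgeR and DESeq2 gave 6 to 10 of the 30 genes called, all higher. The call of Hsd17b7 was lost with upper quartile scaling, in edgeR and with a minimum mean of 1 or none. Over all genes the count was 3085, with 0 under the replicate block, 1 in limma without the variance trend and 0 with the tubule covariate (4284, 5305 and 432 at an unadjusted p below 0.05), while edgeR called 2841 and DESeq2 3810. Of the 30 genes, 0 passed in limma with the block, without the trend or with the covariate, with 10, 11 and 1 at an unadjusted p below 0.05. Leaving out a library gave 0 to 4294 calls over all genes and 0 to 8 among the 30. Whether the numbers pair the samples could not be decided. Same-numbered deviations from the group means correlated at -0.226, -0.191 and -0.013, but with 3 libraries per group such deviations are not independent. The block took 3085 calls to 0 in limma, but it also uses up degrees of freedom. With the tubule covariate the log2 fold change changed sign in Insig1 (0.16), Hmgcs1 (-0.60), Pmvk (0.15), Ggps1 (0.28), Sqle (-0.13), Cyp51 (-0.085), Lbr (0.0655), Ebp (-0.0698), Sc5d (-0.19) and Dhcr7 (0.10), none of them called; the cause was not tested. Without single libraries Insig2 ranged from -0.12 to 0.0024 and Ggps1 from -0.23 to 0.0729. The sterol minus fatty acid difference in median log2 fold change was -0.11. In every alternative run it moved by less than the pooled SD, within groups, of the sterol minus fatty acid difference in mean log2 level. That SD is a different measure, so the comparison says little about stability. The level differences behind it were -0.25, -0.04 and -0.02 in KO-1 to KO-3, and -0.09, -0.07 and -0.15 in WT-1 to WT-3.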

Other observations

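Other genes of the lists, named after their values were seen, show how unevenly lipid metabolism moved. Dgat2, which completes triglyceride synthesis, was at 804, 382 and 374 in WT and at 1029, 1594 and 1436 in KO, a log2 fold change of 1.45 that was 0.05 with the tubule marker mean in the fit. Its counterpart Dgat1 had a log2 fold change of 0.19 (limma adjusted p = 0.215). Me1, malic enzyme, which supplies reducing power for lipogenesis, and Mlxipl, a glucose-sensing lipogenic factor, had log2 fold changes of 1.41 and 1.08, and 0.09 and -0.08 with the marker mean. Mcat, of mitochondrial fatty acid synthesis, rose from 229 ± 7.17 to 331 ± 22.2 (SD, n = 3; log2 fold change 0.53, and 0.38 with the marker mean). Elovl5, an elongase of polyunsaturated fatty acids, fell from 1578 to 1180.3, and Scarb1, a receptor for high-density lipoprotein, from 505 to 375 (means of 3; log2 fold changes -0.41 with SE 0.11 and -0.43 with SE 0.10, limma adjusted p = 0.0361 and 0.0329). With the marker mean in the fit these log2 fold changes were -0.12 and -0.31. Trarg1, listed with the adipocyte markers, fell from 150.2 to 66.7 normalised counts, although 10 other genes of that list of 12 averaged below 10.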
